A study of Mus musculus with 36 samples.

Results

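The comparison described here is Sendai virus alone against no ligand, in bone marrow-derived dendritic cells of the mouse. Its members are 4 of the 36 libraries of the series, the 2 libraries labelled S (the ligand is labelled SeV) and the 2 labelled Ctrl, and every peak outside the mitochondrial genome. Of 119750 such peaks, 119464 passed a filter on low counts and were tested, in either direction. The series measured open chromatin by ATAC-seq, in which a transposase cuts accessible DNA and leaves sequencing adapters in it, after single ligands of innate receptors and their combinations. The other groups used below are P (labelled PAM), L (LPS), cG (3',3'-cGAMP), PS (PAM with SeV), PcG and PScG (PAM with 3',3'-cGAMP, without and with SeV), and ZcG and ZScG (depleted zymosan with 3',3'-cGAMP, without and with SeV). All groups, control included, were cells from female C57BL/6 mice aged 6 to 8 weeks, grown from bone marrow with GM-CSF at 15 ng/mL, stimulated for 6 h where a ligand was given, and used at 50000 cells per library. Cultures with GM-CSF hold macrophage-like as well as dendritic cells, so a group is a mixed culture. The labels do not say whether the 2 libraries of a group came from separate animals or cultures. All p-values below rest on the spread between the libraries of a group, pooled largely over all 18 groups of the series. This spread may be technical.

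Sendai virus is a mouse paramyxovirus with an RNA genome that replicates in the cytoplasm. Its RNA is recognised chiefly by the sensor RIG-I, which signals through MAVS to the kinases TBK1 and IKKε, to the transcription factors IRF3 and IRF7 and to NF-kappaB. These switch on Ifnb1 and inflammatory genes. Secreted interferon then acts back on the cells through its receptor and transcription factors that bind the interferon-stimulated response element (ISRE) and open and transcribe antiviral genes.

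Counts outside the mitochondrial genome were 11213646 and 11965163 in the control libraries and 14004556 and 15132150 in the S libraries. Values per library are given as CPM, the usual depth-scaled count unit, computed outside the mitochondrial genome after TMM scaling. A limit of 3 counts corresponded to 0.328 and 0.289 CPM in the control libraries and to 0.196 and 0.185 CPM in S. A single mitochondrial peak, left out of all tests, took 61.9% and 60.1% of all counts in control but 47.1% and 48.7% in S. Across peaks, which are not independent, log2 CPM correlated at r = 0.929 between the control libraries and 0.948 between the S libraries. The 2 libraries of each group differed by more than sampling noise, with a chi-square per degree of freedom of 2.32 in control and 2.23 in S.

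Peaks at marker genes of several cell types were summed in each library. Having a tested peak does not separate cell types, as all B cell and stromal markers had one too. The sums run over 85 dendritic cell, 82 macrophage, 56 plasmacytoid dendritic cell, 22 granulocyte, 23 B cell and 8 erythroid peaks. They can therefore be compared between libraries but not between cell types. Every one of 10 dendritic cell markers, Itgax, Zbtb46 and Flt3 among them, had a tested peak, and their summed level was 425.8 and 414.3 CPM in control and 474.1 and 452.6 CPM in S. The sum over 9 macrophage markers was 485.2 and 447.9 CPM in control and 423.4 and 415.0 CPM in S, so both kinds of marker were open in all 4 libraries. Plasmacytoid dendritic cell markers (5 of 6 with a peak) summed to 376.3 and 342.0 CPM in control and 291.1 and 302.7 CPM in S, and granulocyte markers (9 of 11) to 114.4 and 99.8 CPM against 97.0 and 97.6 CPM. B cell markers (7 of 7) gave 101 and 104 against 103 and 113 CPM, T and NK cell markers (6 of 9) 55.7 and 58.9 against 62.1 and 62.1 CPM, and stromal markers (6 of 6) 72.5 and 74.9 against 69.5 and 67.3 CPM. Mast cell markers (3 of 7) and erythroid markers (4 of 7) stayed between 17.7 and 23.1 CPM and between 92.1 and 105.9 CPM. No tested peak lay at Cpa3, Fcer1a, Mcpt8, Cma1, Gata1, Hbb-bs, Alas2, Bcl11b, Ncr1, Gzma, Ngp, Retnlg or Klk1. In bulk cells, fewer cells of a type and less accessibility per cell cannot be told apart, and the part of the marker shifts in the results below was not tested.

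S changed the accessibility of a large share of the genome's peaks, in both directions. By edgeR's quasi-likelihood test with Benjamini-Hochberg adjustment over all tested peaks, called at an adjusted p under 0.05, 16885 peaks were higher and 16456 lower in S than in control, 14.1% and 13.8% of those tested (27.9% together). Higher peaks moved further. Their median log2 fold change was 1.57, against -1.11 for the lower peaks, and 5568 of them but only 1808 of the lower peaks moved by more than 2 on the log2 scale. In 324 of the higher peaks neither control library had a count, and setting those to the limit of 3 counts per library gave a median of 1.54. Both S libraries lay above both control libraries in 31.4% of tested peaks and below them in 31.2%. A requirement that the fold change exceed 1.5, chosen after seeing the data, left 8814 higher and 5999 lower calls.

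Beside these counts stand a scale and a covariate that move them. TMM centres the bulk of the peaks, and the median over all tested peaks was 0.0041. Scaling by the total outside the mitochondrial genome moved that median to 0.37 and the split to 31040 higher and 7212 lower, 81.1% of calls higher in place of 50.6%. Directions are therefore relative to the bulk of the peaks. With the mitochondrial share of each library as a covariate, an alternative chosen after seeing the data, 4768 higher and 2982 lower peaks were called, 7413 of these 7750 being among the original calls. Without control library 1, 21786 peaks were called.

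**Figure D1:**
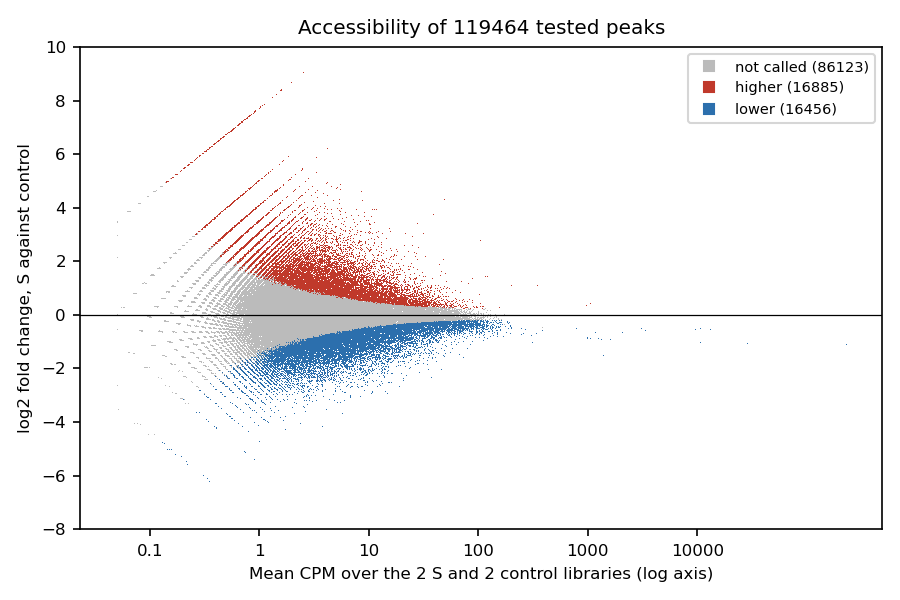
Log2 fold change of S against control (vertical axis) against the mean CPM over the 4 libraries (horizontal axis, log scale), 1 point per tested peak, with the 16885 peaks called higher in red and the 16456 called lower in blue. The red cloud reaches further from 0 than the blue one, and the diagonal streaks at the upper left are peaks with 0 or few counts in both control libraries, whose fitted fold change has no fixed size.

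The peak of lowest p among the higher peaks lay over Rsad2, which encodes viperin, an interferon-induced enzyme that makes a chain-terminating nucleotide. This peak, chr12:26438731-26453446 in mm10, covers 14716 bases of the gene, and its CPM was 25.6 and 28.0 in control and 183 and 179 in S (log2 fold change 2.75 ± 0.10 (SE), edgeR adjusted p = 1.0e-65). Groups that did not overlap were part of the rule for the peaks of lowest p, higher and lower alike. The peak chr11:83521831-83527834 overlaps Ccl5, a chemokine that draws T cells and monocytes, and the neighbouring gene Heatr9. It went from 5.14 and 4.44 CPM to 93.8 and 91.0 CPM (4.27 ± 0.14, edgeR adjusted p = 7.9e-65). The antiviral gene Ifit2, whose product binds viral RNA, had a peak of 6561 bases at chr19:34572687-34579247 with 8.85 and 5.02 CPM in control and 54.8 and 57.0 CPM in S (3.03 ± 0.15). Inside Tnfsf15, the gene of a cytokine of the TNF family, the peak chr4:63733434-63742661 went from 7.54 and 9.26 to 46.1 and 50 CPM (2.51 ± 0.14).

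Other peaks of this ranking lay within genes that are not classical interferon targets. Inside Alcam, which encodes an adhesion molecule that binds CD6 on T cells, chr16:52425031-52426621 had 4.37 and 4.92 CPM in control and 34.8 and 40.8 CPM in S (3.02 ± 0.15). Inside Nfkb1, the gene of the NF-kappaB subunit p50, chr3:135640041-135640780 was almost closed in control at 1.53 and 1.25 CPM and reached 20.3 and 21.6 CPM in S (3.91 ± 0.23). This element lies well inside the gene, and the promoter peak of Nfkb1 stayed at 43.7 and 40.3 CPM against 42.3 and 40.4 CPM (-0.02, edgeR adjusted p = 0.91). The remaining 4 were in Trio, a guanine exchange factor (2.91), near Fpr2, a formyl peptide receptor (3.91), in Gpd2, the mitochondrial glycerol phosphate dehydrogenase (2.16), and near Mrpl39 (2.04).

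The peak near Mrpl39, chr16:84702454-84709237, lies 3786 bases from Mir155hg, the host transcript of the microRNA miR-155, a regulator of inflammatory signalling in myeloid cells. It was singled out for this reason after its values were seen. The mature microRNA, from RefSeq, is shown with its seed (bases 2 to 8) in capitals.
miR-155-5p: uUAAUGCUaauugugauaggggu
The peak over the host gene itself, chr16:84711200-84714913, had 14.3 and 9.45 CPM in control and 50.8 and 54.7 CPM in S (2.16 ± 0.13). A broad peak beyond it, chr16:84715616-84722233, went from 4.48 and 6.27 CPM to 69.0 and 75.3 CPM (3.73 ± 0.21), the highest fold at this locus. Both S libraries were far above both control libraries at all 3 peaks. ATAC-seq gives no level of the microRNA itself.

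**Figure D2:**
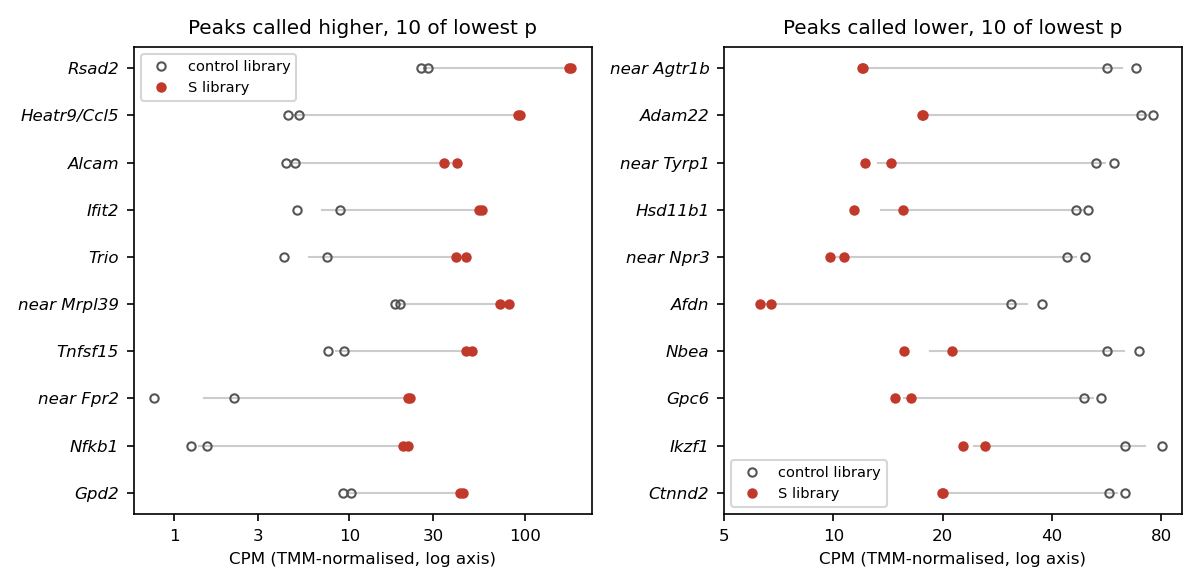
CPM of each library (horizontal axis, log scale) at the 10 peaks of lowest p called higher (left) and the 10 called lower (right), with control libraries as open circles, S libraries as filled red circles and a line between the group means. The peaks were picked among those whose groups do not overlap, and run from 25.6 and 28.0 against 183 and 179 CPM at Rsad2 to 63.5 and 57.5 against 20 and 19.9 CPM at Ctnnd2.

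The largest fold changes, among called peaks with a mean of at least 2 CPM, were at elements with next to no counts in control. Inside Kalrn, which like Trio encodes a guanine exchange factor, chr16:34198492-34199079 held no read of either control library (0 counts) and reached 5.17 and 4.80 CPM in S, at least 16.1-fold higher against a limit of 3 counts per library. In Zbtb20, a transcriptional repressor gene, a peak of 2 counts in control and 261 in S had a ratio of 80.7 (95% exact interval 22.1 to 670.3, which covers counting error only). Hpse2 had 2 against 205 counts, a ratio of 63.4 (17.3 to 527.2). The peak nearest to Iigp1, an interferon-induced GTPase, had 2 against 146 counts (45.2, 12.3 to 376.5). The other 6, near Atp2b1, Ywhaq, Dse, Dnajc1 and Mzt1 and in Alpk2, had ratios of 32.6 to 47.3 from 2 or 3 control counts.

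Among the lower peaks, the lowest p belonged to a site 9093 bases from Agtr1b, an angiotensin receptor gene. This peak, chr3:20304355-20305380, had 68.3 and 56.7 CPM in control and 12.0 and 12.1 CPM in S (-2.38 ± 0.14, edgeR adjusted p = 8.7e-37). Inside Ikzf1, the gene of the lymphoid and myeloid transcription factor Ikaros, chr11:11729866-11731016 went from 80.4 and 63.8 to 26.2 and 22.7 CPM (-1.56 ± 0.12). Inside Hsd11b1, which encodes the enzyme that regenerates active glucocorticoid, chr1:193241954-193243350 went from 50.4 and 46.6 to 11.4 and 15.6 CPM (-1.84 ± 0.13). The rest of the 10 were open sites of 30.8 to 75.9 CPM in control, in Adam22 (-2.05), Afdn (-2.39), Nbea (-1.77), Gpc6 (-1.73) and Ctnnd2 (-1.60) or near Tyrp1 (-2.07) and Npr3 (-2.19). Several of these genes, such as Nbea and Ctnnd2, are best known from neurons, and a site inside a gene need not act on it.

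The largest falls were at weaker sites. In Astn2 a peak went from 7.54 and 6.66 CPM to 0.262 and 0.492 CPM (-4.19 ± 0.58), and in Kcnip4 from 11.5 and 9.55 to 0.916 and 0.677 CPM (-3.71 ± 0.46). The other 8, in Kcnn2, Dchs1 and Sema6d and near Wdr89, Olfr698, Frmpd4, Kcna4 and Rps6ka3, fell by 3.36 to 4.08 on the log2 scale. With the mitochondrial share as a covariate, 5 of these 10 peaks of largest fall were still called, against 10 of 10 in each of the other 3 groups of ranked peaks.

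Higher and lower peaks differed in where they lay. Within 1 kb of a listed gene start, 9.45% of 15083 tested peaks were called higher and 17.2% lower. Inside protein-coding genes away from starts, the shares were 14.7% and 12.6% of 57955 peaks. More than 100 kb from any listed start and outside genes, 12.6% of 7455 were higher and 20.5% lower. No start was listed for chromosome 18. Its peaks inside genes therefore fall in the second class and those outside genes in the third, whatever their distance. Of the 3951 tested peaks of chromosome 18, 12.9% were higher and 17.3% lower. The lower peaks were stronger sites, with a median of 5.81 CPM against 2.77 CPM for the higher peaks. Calls are relative to the bulk of the peaks under TMM. Of counts outside the mitochondrial genome, peaks within 1 kb of a start held 24.8% and 25.4% in control and 29.9% and 29.3% in S. Those inside genes held 26.0% and 26.5% against 30.1% and 30.1%, and those over 100 kb away 6.45% and 6.61% against 5.83% and 5.78%. The rest held 42.8% and 41.5% against 34.1% and 34.8%. Peaks near starts also had a higher median, 10.3 CPM against 2.14 CPM over all tested peaks. These shares carry no test, and peaks are not replicates.

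Chromosomes differed as well. On chromosome 11, 16.9% of peaks were higher and 7.43% lower, with a median log2 fold change of 0.20, whereas on chromosome X 7.78% were higher and 19.3% lower, with a median of -0.24. Against the mean of all 36 libraries, chromosome X peaks stood at 0.16 and 0.13 in the control libraries and -0.035 and -0.024 in S on the log2 scale. In the libraries of depleted zymosan alone, whose mitochondrial share was 62.4% and 60.9%, they stood at 0.12 and 0.13. In ZcG, whose share was 62.8% and 63.1%, they stood at 0.065 and 0.016. In ZScG, whose share was 57.9% and 58.7%, they stood at -0.044 and -0.062. In PS, whose share was 46.6% and 45.0%, they stood at -0.043 and -0.045. The part of the mitochondrial share in the chromosome pattern was not tested.

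Very broad peaks were called most often. Of the 46 tested peaks of at least 5 kb, 23 were higher and 12 lower. Among the higher ones were peaks over inflammatory and antiviral genes. Over Acod1, which makes the antimicrobial metabolite itaconate, a peak of 13361 bases went from 131 and 125 to 272 and 269 CPM (1.08 ± 0.08). Over Tnf it went from 23.3 and 22 to 69.4 and 69.2 CPM (1.62 ± 0.11), over Cxcl10 from 18.6 and 19.0 to 70.9 and 65.0 CPM (1.85 ± 0.11), and over the atypical chemokine receptor gene Ccrl2 from 56.8 and 67.8 to 162 and 170 CPM (1.41 ± 0.09). Among the lower ones, a peak at chr17:39842853-39848963, which overlaps the ribosomal RNA pseudogene Rn18s-rs5, had 2060 and 2030 CPM in control and 732 and 667 CPM in S (-1.55 ± 0.16), 4 others lay at Sfi1 and 3 on unplaced scaffolds. How reads that map to several places were handled is not given in the sources used here, so values at repeated sequence and in gene families of near-identical members (Ifna, Ifit, Oas, Gbp, Ugt1a) are uncertain.

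Genes of 18 pathway lists were examined by locus, that is all tested peaks in the gene and within 5 kb of its ends. At least 1 higher peak was found at 243 of 325 listed genes (74.8%) and at least 1 lower peak at 74 (22.8%), against 37.2% and 36.8% of 16770 protein-coding genes with a tested peak. For each gene the peak of lowest p in its locus is called its lead peak, and the peak within 1 kb of its start its promoter peak. Where no start was listed, as on chromosome 18, a peak within 1 kb of either end of the gene was taken. Such a promoter peak may lie at the far end of its gene. Where a list's median is given, the median over all tested peaks for comparison is 0.0041. Under the total scaling every list median rose by about the 0.37 of all peaks, so that the median of the scavenger list turned from -0.06 to 0.31. No other pathway list changed the sign of its median. With the mitochondrial share as a covariate fewer peaks were called at every list. The antiviral effectors then had 73 higher and 0 lower peaks (median 1.12) and the sensing genes 24 and 2. The GTPases had 20 and 0, the feedback inhibitors 19 and 1 and the NF-kappaB genes 13 and 0. Interferon genes had 3 and 0, their receptors and kinases 7 and 0, IRF and STAT factors 10 and 0, cytokines 25 and 3, chemokines 13 and 1, MHC class I 9 and 0, class II 2 and 0, and maturation genes 14 and 1. Lineage factors had 8 and 9, scavenger genes 10 and 7, growth factor receptors 1 and 0, the stress and death genes 5 and 0, and cell cycle genes 2 and 1.

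**Figure D3:**
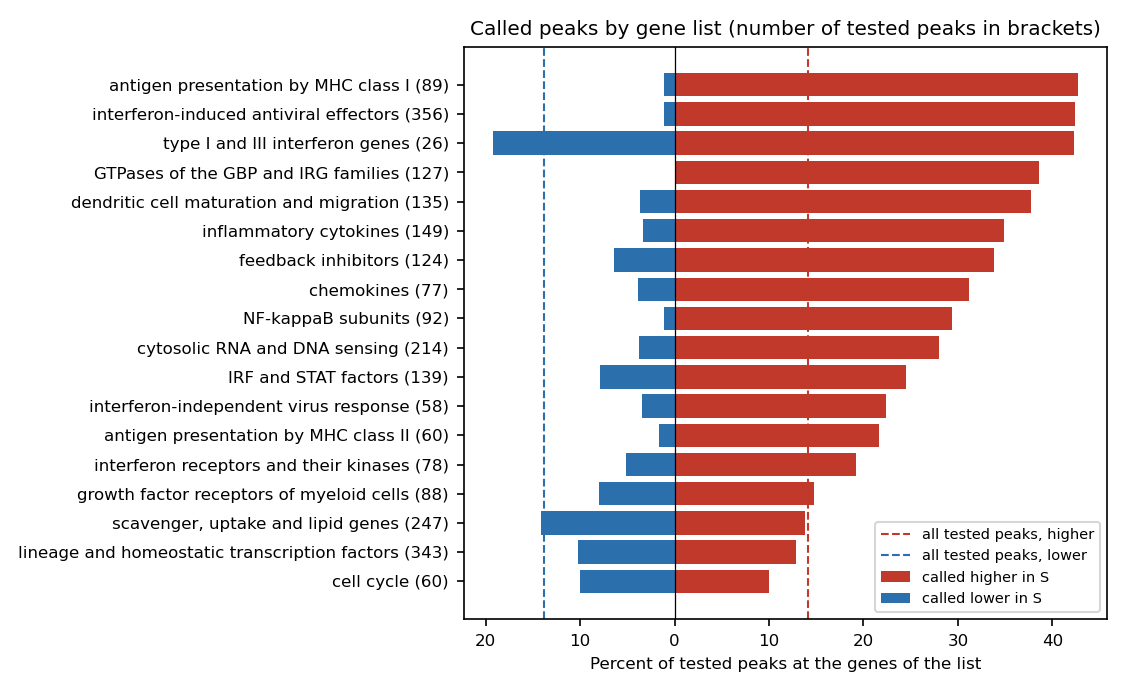
Share of tested peaks called higher (red, to the right) and lower (blue, to the left) in S at the genes of each list, in percent, with the number of tested peaks in brackets and dashed lines at the shares over all tested peaks, 14.1% and 13.8%. Red bars pass the dashed line most clearly for MHC class I, antiviral effectors and interferon genes, while cell cycle, lineage factor and scavenger lists stay at or below it.

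Of 15 type I and III interferon genes with a tested peak, 10 had a higher and 2 a lower peak (11 and 5 of 26 peaks, median 0.43). At Ifnb1, the earliest interferon gene of the response to RNA viruses, 3 of 4 locus peaks were higher. Its lead peak, chr4:88519372-88521906, lies just beyond the end of the gene away from the promoter and had 3.28 and 1.83 CPM in control and 20.3 and 22.9 CPM in S (3.10 ± 0.26, edgeR adjusted p = 1.3e-22). The promoter peak chr4:88522158-88523152 went from 1.31 and 2.03 to 9.62 and 10.4 CPM (2.56 ± 0.33). The stretch of the promoter below (RefSeq, GRCm38.p6, chr4:88522855-88522974, minus strand) lies in that peak and is printed because it holds the Ifnb1 enhancer. Every match of the letters GAAA is in capitals, including those outside the elements that IRF proteins bind. It was chosen after its values were seen.
Ifnb1: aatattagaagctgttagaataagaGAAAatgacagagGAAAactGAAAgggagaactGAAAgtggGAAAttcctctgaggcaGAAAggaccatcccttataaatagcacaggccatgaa
The stretch holds 6 such matches, and no S value at this peak overlapped a control value.

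Within the Ifna cluster on chromosome 4, the promoter peak of Ifna2 went from 0.328 and 0.386 to 6.54 and 4.49 CPM (3.91 ± 0.53) and that of Ifna4 from 0.437 and 0.772 to 3.27 and 4.61 CPM (2.67 ± 0.51). Ifna5 (2.09) and Ifna16 (2.15) also had higher lead peaks. Ifne, expressed mainly in epithelia, had 0.219 and 0 CPM in control and 1.18 and 1.11 CPM in S. Lower peaks lay at Ifna13 (-0.59) and at Ifnz, where 4 of 5 were lower and the lead peak went from 27.6 and 30.0 to 21.4 and 21.3 CPM (-0.43). Under the total scaling no interferon peak was lower. Ifna14 (0.88), Ifnk (1 count in control) and Ifnab (-0.08) had no called peak.

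Receptors and kinases of the interferon pathway moved less. Higher peaks lay at 5 of 9 genes and lower peaks at 2 (15 and 4 of 78 peaks, median 0.23). At Tyk2, a kinase of the type I interferon receptor, the lead peak outside the gene went from 5.90 and 6.46 to 29.8 and 25.0 CPM (2.14 ± 0.17), while the promoter peak had 34.0 and 27.6 against 30.6 and 34.3 CPM. Ifnar2, a chain of that receptor, had a peak inside the gene that went from 17.5 and 15.3 to 33.4 and 33.1 CPM (1.02), which is also the promoter peak of Il10rb. A peak inside Jak1 (-1.62) and the promoter of Ifngr1 (-0.40) were lower. No peak was called at Ifnar1 (lead peak 0.17), Ifngr2 (0.61) or Ifnlr1 (1.18).

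The sensors and adaptors that start the pathway were among the genes that opened. Of 23 genes of cytosolic RNA and DNA sensing, 17 had a higher and 6 a lower peak (60 and 8 of 214 peaks, median 0.43), and 10 of 23 promoter peaks were higher and 0 lower. Ifih1, the gene of the RNA sensor MDA5, had 18 higher peaks of 37. Its lead peak, chr2:62587194-62592006, went from 9.29 and 8.01 to 40.8 and 45.4 CPM (2.32 ± 0.14), whereas its promoter peak went from 42.2 and 40 to 54.4 and 51.1 CPM (0.36 ± 0.10). Ddx58, which encodes RIG-I, had a promoter peak of 8.85 and 13.5 CPM in control and 14.9 and 17.6 CPM in S (0.53, edgeR adjusted p = 0.014). Rnf135, a ubiquitin ligase that activates RIG-I, had a higher peak inside the gene (2.13 ± 0.23). Dhx58 (0.90), Zbp1 (0.68), Ticam1 (1.31) and Traf3 (1.25) had higher lead peaks.

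Some sensing genes lost accessibility. At Tlr3, the receptor for double-stranded RNA in endosomes, a peak outside the gene went from 21.0 and 19.6 to 6.54 and 6.58 CPM (-1.63 ± 0.22), and the promoter peak had 16.2 and 15.7 against 19.2 and 17.0 CPM (0.18, edgeR adjusted p = 0.44). At Tbk1 a peak inside the gene was lower (-1.14) while the promoter peak was higher, from 58.9 and 64.3 to 85.9 and 85.1 CPM (0.47). Lower lead peaks also lay at Traf6 (-1.84), Myd88 (-0.68) and Aim2 (-0.51), with the call lost in 2, 5 and 10 of 16 alternatives. Cgas (-0.53), Mavs (0.41) and Zcchc3 (-0.25) had no called peak.

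All 16 IRF and STAT genes had a called peak, 15 a higher and 5 a lower one (34 and 11 of 139 peaks, median 0.28). Stat2, a factor that interferon receptors activate, had a higher lead peak (1.06) that it shares with the neighbouring cytokine gene Il23a. Irf7, which amplifies the interferon response, had a higher promoter peak, from 19.1 and 18 to 35.4 and 31.8 CPM (0.85). The lead peaks of Stat5b (2.42), Stat3 (2.52) and Irf1 (1.64) were higher too. At Irf2, 3 peaks were higher and 6 lower, and Stat4 (-1.21) and Irf4 (-0.48) had lower lead peaks, though the call at Irf4 (edgeR adjusted p = 0.045) was lost in 11 of 16 alternatives.

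The antiviral effectors, genes that interferon induces and that block viral replication, moved almost all one way. Of 45 genes, 41 had a higher and 4 a lower peak. Of their 356 peaks, 151 were higher and 4 lower, and the median was 0.96 (0.83 for PS against P, which shares no library with this comparison). Higher promoter peaks were found at 28 of 45 genes and lower ones at 0. The promoter moved less than the lead peak, with a median of 0.42 against 1.74, and the lead peak was the promoter peak at 12 of the 41 genes whose lead peak was higher. The lead peak was chosen by its p in this comparison, so the difference between these medians is a description.

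All 5 peaks at Rsad2 were higher, and the promoter peak went from 19.2 and 16.3 to 32.9 and 31.7 CPM (0.87), a smaller change than over the gene body. At Ifit1 the lead peak chr19:34649632-34654426 went from 3.82 and 5.79 to 50.6 and 51.0 CPM (3.39 ± 0.18) and the promoter peak from 12.2 and 13.1 to 26.9 and 31.2 CPM (1.20). At Ifit2 the promoter peak had 8.85 and 10.6 against 8.11 and 10.8 CPM (-0.05). Oasl1, which restrains translation of Irf7 mRNA, differs in that its promoter peak was the lead peak, at 10.4 and 11.1 CPM in control and 45.0 and 44.2 CPM in S (2.05 ± 0.13), and 13 of its 16 peaks were higher. Isg15, a ubiquitin-like modifier, had a lead peak of 47.7 and 51.4 CPM in control and 121 and 128 CPM in S (1.33). Mx1, an antiviral GTPase that is not functional in most inbred strains, had a peak that went from 10.2 and 10.9 to 31.5 and 31.4 CPM (1.57). Epsti1 had 1 peak lower (-0.98), and no peak was called at Eif2ak2 (0.19) or Ifi44l (-0.86).

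**Figure D4:**
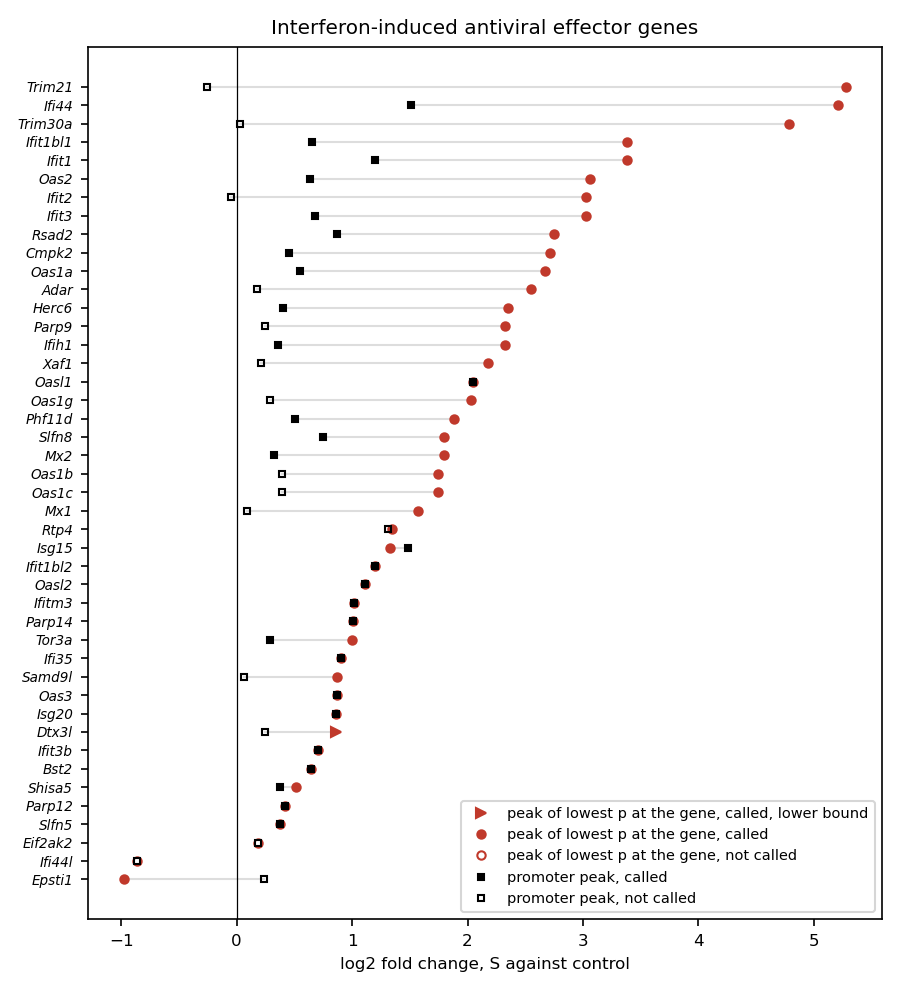
Log2 fold change of S against control (horizontal axis) at the lead peak (red) and the promoter peak (black) of the antiviral effector genes listed on the vertical axis, filled where called and open where not, with a triangle where control had 0 counts and the value is a lower bound. The red points reach past 2 for many genes whose black squares stay between 0 and 1, for example 2.75 against 0.87 at Rsad2 and 3.39 against 1.20 at Ifit1. At Trim21 and Ifi44 the lead peak had 1 control count.

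Promoter sequences were searched for the ISRE, written as GAAANNGAAA on either strand. The 6 promoters below are those of the antiviral effector, IRF and STAT genes with the lowest p at a higher promoter peak whose 300-base window holds the element. Each line gives 120 bases of the RefSeq promoter (GRCm38.p6), in the direction of the gene, with every ISRE in capitals.
Isg15: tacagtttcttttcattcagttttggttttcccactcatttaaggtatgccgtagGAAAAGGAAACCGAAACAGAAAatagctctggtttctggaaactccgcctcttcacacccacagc
Ifit1bl2: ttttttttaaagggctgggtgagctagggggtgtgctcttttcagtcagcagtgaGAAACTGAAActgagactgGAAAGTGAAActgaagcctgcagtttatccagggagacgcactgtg
Ifit1: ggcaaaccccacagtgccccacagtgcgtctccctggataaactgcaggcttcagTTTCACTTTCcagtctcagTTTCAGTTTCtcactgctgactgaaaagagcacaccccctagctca
Oas3: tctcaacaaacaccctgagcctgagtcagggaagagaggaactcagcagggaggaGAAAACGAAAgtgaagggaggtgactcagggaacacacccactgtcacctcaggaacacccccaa
Rsad2: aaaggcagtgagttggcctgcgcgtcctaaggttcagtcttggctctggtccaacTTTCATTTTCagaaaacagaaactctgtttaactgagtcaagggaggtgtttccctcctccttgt
Ifit3b: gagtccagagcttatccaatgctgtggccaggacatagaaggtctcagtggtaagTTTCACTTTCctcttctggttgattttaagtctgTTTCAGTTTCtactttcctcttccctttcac
The Isg15 stretch, chr4:156200832-156200951, holds 3 overlapping matches, and the promoter peak around it went from 8.85 and 10.8 to 28.9 and 26.4 CPM (1.49). The Ifit1bl2 and Ifit1 lines (chr19:34640749-34640868 and chr19:34640730-34640849) are the 2 strands of a shared divergent promoter and hold the same 2 elements. Oas3 (chr5:120777670-120777789) and Rsad2 (chr12:26456508-26456627) hold 1 element each, under peaks of 0.87 and 0.87. Ifit3b (chr19:34607714-34607833) holds 2, under a peak that went from 29.3 and 35.6 to 54.9 and 51.1 CPM (0.70).

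Over the whole table, the ISRE was present in 3.43% of 32817 promoter windows. It was present in 7.35% of 1211 windows in a higher peak, in 2.68% of 2985 in a lower peak (5.94% of the 320 that were lower by more than 1) and in 2.93% of 10263 in a peak that was not called. The AP-1 element TGANTCA was in 7.81% of all windows, in 10.9% of those in a higher peak and in 4.76% of those in a lower peak. Among higher peaks with a log2 fold change over 2, it was in 26.2% of 65 windows. The kappaB element GGGANTTTCC was in 0.411% of all windows, 1.4% of higher and 0.168% of lower ones, and the PU.1 element GAGGAAGT in 3.20% of all windows but in 8.12% of 320 windows in peaks that were lower by more than 1. These are shares of promoters with a sequence match and carry no test. Most of the called peaks lie away from promoters and were not searched.

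The GTPases of the GBP and IRG families, which attack vacuoles of intracellular pathogens, had higher peaks at 15 of 16 genes and lower peaks at 0 (49 and 0 of 127 peaks, median 0.89). A site between Gbp5 and Gbp7, chr3:142523518-142525839, went from 1.64 and 1.45 to 19.3 and 15.6 CPM (3.50 ± 0.30), and 12 of 16 peaks at Gbp5 were higher. Promoter peaks were higher at Gbp5 (1.30), Gbp4 (1.05), Irgm1 (0.59), Tgtp2 (1.01) and Iigp1 (3.03). Iigp1 is on chromosome 18, where no start was listed, so its peak may lie at either end of the gene. None of the 15 higher lead peaks was a promoter peak, and 7 lay at or beyond the far end of the gene. No peak was called at Gbp8 (-0.57).

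Feedback inhibitors opened beside the activators. Of 17 genes, 14 had a higher and 4 a lower peak (42 and 8 of 124 peaks, median 0.45). Il1rn, the interleukin-1 receptor antagonist, had 10 higher peaks of 13, and its lead peak went from 4.15 and 3.67 to 23.0 and 20.8 CPM (2.49 ± 0.18). At Tnfaip3, which encodes the NF-kappaB inhibitor A20, a peak outside the gene went from 3.39 and 2.99 to 17.8 and 19.9 CPM (2.57 ± 0.21). The promoters of Socs1, from 46.4 and 51.7 to 89.0 and 84.3 CPM (0.82), and of Socs3, from 13.5 and 14.3 to 29.9 and 31.0 CPM (1.13), both brakes on cytokine receptors, were higher, as were Nfkbie (0.96) and Cish (0.77). Lower lead peaks lay at Pdcd4 (-1.12) and Dusp4 (-1.26), and no peak was called at Nlrc3 (0.68).

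All 8 NF-kappaB subunit genes had a higher peak (27 higher and 1 lower of 92 peaks, median 0.56). Nfkb1 alone held 17 of these. The promoters of Nfkb2, from 39.9 and 46.6 to 84.3 and 74.7 CPM (0.88), Nfkbiz (0.82) and Rela (0.61) were higher, and Rel (0.81) and Map3k8 (1.57) had higher lead peaks away from their promoters, the latter at -0.25 with the mitochondrial share as a covariate. For PS against P the list's median was 0.06, with 10 peaks higher and 4 lower.

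Inflammatory cytokines and chemokines followed the same direction. Of 23 cytokine genes, 17 had a higher and 5 a lower peak (52 and 5 of 149 peaks, median 0.46), and 14 of 22 promoter peaks were higher and 0 lower. Beside Tnf, Il27 went from 3.17 and 2.99 to 16.9 and 16.2 CPM (2.42), and Il15, which sustains NK cells, from 31.6 and 32.0 to 68.4 and 64.0 CPM (1.06), with 10 of 17 peaks higher. The Il6 promoter went from 6.88 and 8.88 to 18.8 and 20.1 CPM (1.30), and Il15ra (2.29) was higher. A peak inside Il12b, the shared subunit of interleukins 12 and 23, was lower, from 10.4 and 10.8 to 3.07 and 2.40 CPM (-1.95), as was a peak beside Il1b (-1.58). Csf3 (0.96), Il12a (0.62), Il18 (0.82) and Fasl (0.46) had no called peak.

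Of 19 chemokine genes, 14 had a higher and 3 a lower peak (24 and 3 of 77 peaks). Their median was 0.37, or 0.27 with the peaks of 0 control counts at their bound. Ccl4, which draws monocytes and T cells, had a peak outside the gene that went from 2.29 and 2.60 to 18.3 and 16.1 CPM (2.80 ± 0.22). The ligands of CXCR3 were higher at Cxcl10 (1.85) and Cxcl11 (0.96). Cxcl16 (1.05) and Ccl22 (1.31) had higher promoter peaks. Lower lead peaks lay at Cxcl2 (-0.54), Ccl6 (-1.85) and Ccl2 (-0.53), with the call lost in 3, 2 and 9 of 16 alternatives, and no peak was called at Cxcl3 (-0.75), Cxcl5 (-0.90) or Ccl7 (0.37).

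Antigen presentation by MHC class I opened more widely than by class II in these counts, a difference that was not tested. At 17 of 18 class I genes a peak was higher and at 1 lower (38 and 1 of 89 peaks, median 0.69), with 14 of 18 promoter peaks higher. The H2-K1 promoter went from 23.1 and 20.9 to 37.4 and 36.2 CPM (0.74), H2-D1 from 31.0 and 34.4 to 51.7 and 50.9 CPM (0.65) and H2-Q7 from 22.1 and 23.8 to 46.8 and 45.1 CPM (1.00). Nlrc5, the transactivator of class I genes, had 10 higher peaks of 20 with a lead of 1.09, and Tapbp (0.77) and Tapbpl (1.23), chaperones of peptide loading, had higher promoters. No peak was called at Erap1 (0.29). For class II, 7 of 9 genes had a higher peak (13 and 1 of 60 peaks, median 0.29), and 2 of 9 promoter peaks were higher. Ciita, the class II transactivator, had a higher peak inside the gene, from 4.59 and 2.99 to 12.8 and 11.4 CPM (1.69), and H2-DMa a higher promoter (0.29). The peak at H2-DMa also overlaps the neighbouring gene Brd2, and its call was lost in 3 of 16 alternatives. H2-Ab1 (0.56) and H2-Aa (-0.94) had no called peak.

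Dendritic cell maturation genes opened at 15 of 16 loci, with 2 that had a lower peak as well (51 and 5 of 135 peaks, median 0.56). Cd40, the receptor through which T cells license dendritic cells, had a promoter peak of 9.83 and 11.8 CPM in control and 35.0 and 34.3 CPM in S (1.67 ± 0.14). Cd274, the gene of PD-L1, had 10 higher peaks of 16, with a lead peak from 6.88 and 5.02 to 18.1 and 21.5 CPM (1.74) and a promoter peak from 21.0 and 20 to 39.5 and 33.5 CPM (0.83). The costimulatory gene Cd86 had 6 higher and 3 lower peaks of 23 and a lead of 2.73. Ccr7, the receptor that guides dendritic cells to lymph nodes, had 1 higher peak of 6 (1.51), while its broad promoter peak had 28.7 and 28.5 against 27.0 and 26.7 CPM (-0.09). Marcksl1 (1.32) and Pdcd1lg2 (1.38) were higher, and Cd70 (1.05) had no called peak.

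Lineage and homeostatic transcription factors had called peaks in both directions, but no more often than tested peaks in general. Of their peaks 12.8% were higher and 10.2% lower, against 14.1% and 13.8% of all tested peaks. Of 35 genes, 19 had a higher and 15 a lower peak (44 and 35 of 343 peaks, median 0.07), and 4 promoter peaks were higher and 9 lower. With the total scaling the peaks split 98 to 12. Mef2c, a factor of myeloid and B cell development, had 9 lower peaks of 23 and none higher, and its lead peak went from 38.1 and 35.8 to 9.75 and 12.4 CPM (-1.74 ± 0.17). Cebpd (-0.95) and Id2 (-0.72) had lower promoters, and Tfec (-1.51) and Nr4a1 (-2.03) lower lead peaks. In the other direction, a peak inside Bhlhe40 went from 6.34 and 5.50 to 24.1 and 26.7 CPM (2.10 ± 0.19), and a peak at Spi1, the gene of PU.1, from 22 and 21.2 to 34.9 and 41.1 CPM (0.82). Runx1 (0.96), Zbtb46 (3.25), Nr1h3 (0.93) and Klf6 (0.76) had higher lead peaks. No peak was called at Klf4 (-0.25), Cebpb (-0.26), Egr2 (1.42), Fos (0.32) or Maf (-0.13).

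Scavenger, uptake and lipid genes had 34 higher and 35 lower peaks of 247 (median -0.06). These are 13.8% and 14.2%, near the 14.1% and 13.8% of all tested peaks. Under the total scaling the counts were 60 and 19. Higher peaks lay at 15 of 21 genes and lower ones at 14, and 8 promoter peaks were lower and 4 higher. At Cd36, a receptor for oxidised lipoprotein, 11 of 32 peaks were lower and none higher, and the lead peak at a start of the gene went from 14.2 and 15.0 to 4.06 and 2.83 CPM (-2.08 ± 0.27). The promoter of Marco, a scavenger receptor for particles, went from 6.12 and 6.85 to 1.44 and 1.11 CPM (-2.35 ± 0.35). Mrc1, the mannose receptor, had a lower promoter, 3.82 and 3.38 against 1.64 and 0.923 CPM (-1.49), and a higher peak inside the gene (2.24), and Msr1 a lower promoter, 18.5 and 15.0 against 8.24 and 8.73 CPM (-0.97), and a higher peak elsewhere in the gene (1.4). Clec7a (-2.17), Abca1 (-1.83), Trem2 (-1.09) and Olr1 (-1.43) had lower lead peaks. Axl, a receptor for apoptotic cells, went up at its lead peak from 10.5 and 9.45 to 25.8 and 24.7 CPM (1.34), as did Mertk (2.26), Clec4e (0.88) and Abcg1.

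Growth factor, chemokine and Toll-like receptors of myeloid cells had higher peaks at 7 of 12 genes and lower peaks at 4. Of 88 peaks, 13 were higher (14.8%) and 7 lower (7.95%), against 14.1% and 13.8% of all tested peaks. The promoter of Tlr4 was lower, from 69.2 and 69.3 to 47.2 and 45.6 CPM (-0.58), as were peaks at Csf1r (-0.99) and Ccr2 (-1.67). Higher peaks lay at Csf2ra (0.45), Flt3 (1.71), Kit (1.12), Csf2rb (0.89), Ccr1 and, near the gene, Tlr2 (0.45). Csf3r (-0.33) and Cx3cr1 (1.56) had none called. Genes of cell stress and death had higher peaks at 9 of 16 genes and lower peaks at 2 (13 and 2 of 58 peaks, median 0.38). Gadd45b, a stress sensor, went from 51.0 and 50.4 to 108 and 114 CPM (1.14 ± 0.09), and Ppp1r15a, which reverses the translation block of stressed cells, from 23.1 and 24.0 to 44.5 and 45.8 CPM (0.94). Ripk3 (1.27), Mlkl (1.33), Bbc3 (0.46) and Casp4 (0.74), genes of cell death, had higher lead peaks, Gadd45a (-0.45) and Gsdmd (-0.49) lower ones, and Pmaip1 (0.46), Chac1 (0.43), Atf4 (1.09), Casp8 (-0.36), Trib3 (-0.16) and Ddit3 (-0.06) none called.

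Cell cycle genes had higher peaks at 5 of 15 genes and lower peaks at 4, and 3 promoter peaks were lower and 0 higher. Of 60 peaks (median 0.06), 6 were higher and 6 lower, 10.0% each against 14.1% and 13.8% of all tested peaks. The promoter of Ccna2, a cyclin of S phase and mitosis, went from 98.4 and 84.5 to 61.8 and 61.9 CPM (-0.56), and Mcm3 (-1.52) and Cdk1 (-1.09) had lower lead peaks. Mki67 had a higher peak inside the gene (1.37), and E2f1 (0.74), Mcm6 (0.84), E2f2 (0.60) and Ccnd1 (1.29, or -0.57 with the mitochondrial share as a covariate, with the call lost in 10 of 16 alternatives) had higher lead peaks. No peak was called at Cdkn1a (1.10), Ccnb2 (1.06), Mcm2 (0.12), Pcna (0.14), Mcm5 (0.39), Top2a (0.08) or Ccnb1 (-0.04).

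Called peaks of 1 direction often lay side by side. Joining called peaks less than 10 kb apart, with none of the other direction between them, gave 1139 runs of at least 3 higher peaks and 753 of lower peaks. Runs held 27.2% of the higher and 16.6% of the lower peaks. The longest higher run, chr11:119389588-119501557, crossed Rnf213, a giant interferon-induced ubiquitin ligase, and Endov with 33 called peaks of 85, whose summed level was 77.2 and 76.5 CPM in control and 193 and 216 CPM in S. Runs of 18 peaks covered Rsad2 and Cmpk2 (110 and 105 against 355 and 341 CPM) and Oasl2 and Oasl1 (40.3 and 43.8 against 152 and 160 CPM), and a run of 20 covered Ifih1. Slc7a2, an arginine transporter of activated macrophages, had a run of 23 higher peaks with a median of 2.47. Other runs of 14 or 15 lay at Mapkapk2, at Orm1 to Orm3 and Akna, at Inhba, at Gbp5 and at Csrnp1.

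Lower runs were shorter and partly in gene families. The longest had 21 peaks over the Ugt1a cluster, followed by 15 over Sfi1 and 11 over Ifnz and its neighbours, where reads of near-identical copies are uncertain. At single-copy genes, Mctp1 had a run of 10 (median -1.14) and Cd36 a run of 8 in which all 8 tested peaks were lower, with a summed level of 40.8 and 43.1 CPM in control and 8.70 and 14.1 CPM in S (median -2.41). Runs of 7 or 8 lay at Xylt1, near Pls3, at Oprm1 and Ipcef1, at Rin3 and near Trappc8.

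SeV was also added to other ligands, which measures its effect with other libraries. PS against P called 11178 peaks higher (9.36%) and 10485 lower (8.78%), 18.1% of those tested. The mitochondrial share was 46.6% and 45.0% in PS and 50.5% and 48.5% in P. It was thus lower with SeV, as in S against control, and its part in these counts was not tested. Among the peaks called higher in S against control, 84.9% had the same sign in PS against P and 39.3% were called higher there. Among the lower peaks, 87.0% had the same sign and 33.3% were called lower. Over all tested peaks, 50.9% were above 0 in PS against P and 49.1% below. Without the first or the second library of each group, PS against P called 9656 and 8003 peaks, and under the total scaling 62.1% of its calls were higher in place of 51.6%. Only 295 of the higher peaks were called lower and 76 of the lower peaks called higher.

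In the presence of 3',3'-cGAMP, few peaks were called for the addition of SeV. PScG against PcG called 241 peaks higher (0.202%) and 251 lower (0.21%), 0.412% together, 9 in all without the first library of each group and 40 without the second. ZScG against ZcG called 1134 higher (0.949%) and 2199 lower (1.84%), 2.79% together, 322 and 651 in all without the first or the second libraries. Under the total scaling the share of calls that were higher moved from 49.0% to 27.6% for PScG against PcG and from 34.0% to 71.4% for ZScG against ZcG. Same-sign shares among the higher and lower peaks of S against control were 68.5% and 68.3% for PScG against PcG and 62.5% and 74.2% for ZScG against ZcG. In all 3 of these additions, 42.0% of the higher and 48.0% of the lower peaks kept their sign, against 19.1% of all tested peaks above 0 and 18.3% below 0 in all 3, and 27 higher and 51 lower peaks were called in all 3.

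The effect of SeV with PAM was smaller than without it at many of the leading peaks, with an interaction called at 9 of the 10 higher peaks of lowest p. These peaks were chosen by the effect without PAM, which is part of the difference. The choice itself favours a smaller effect with PAM, so this count is a description. The difference of the 2 effects, tested as an interaction in the same edgeR fit, was called at 5478 peaks (4.59%), 2008 higher with P (1.68%) and 3470 lower (2.9%). At Alcam, SeV raised the level by 3.02 on its own but changed it by 0.19 beside PAM, an interaction of -2.83. The level with PAM alone was already 43.5 ± 1.58 CPM (SD, n = 2), against 37.8 ± 4.27 with SeV alone and 49.6 ± 2.17 with both. The Nfkb1 element gave 22.1 ± 0.40 CPM with PAM alone, 20.9 ± 0.93 with SeV and 24.9 ± 0.95 with both (interaction -3.74). The peak near Mrpl39 and Mir155hg had 78.3 ± 3.61, 77.1 ± 6.55 and 89.8 ± 13.8 CPM (-1.85).

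Antiviral peaks showed a different order of levels. At Rsad2, PAM alone gave 33.1 ± 2.29 CPM, close to the 26.8 ± 1.71 of control, SeV 181 ± 3.00 and both 160 ± 19.6, with SeV effects of 2.75 without and 2.27 with PAM (interaction -0.48). At Ifit2 the levels were 3.85 ± 1.46 with PAM, 55.9 ± 1.60 with SeV and 46.8 ± 3.22 with both. The SeV effects there, 3.03 and 3.61, did not differ by the test (edgeR adjusted p = 0.15, interaction 0.58 ± 0.23 (SE)). Ifnb1 gave 3.10 without and 3.97 with PAM, a difference that was not called.

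**Figure D5:**
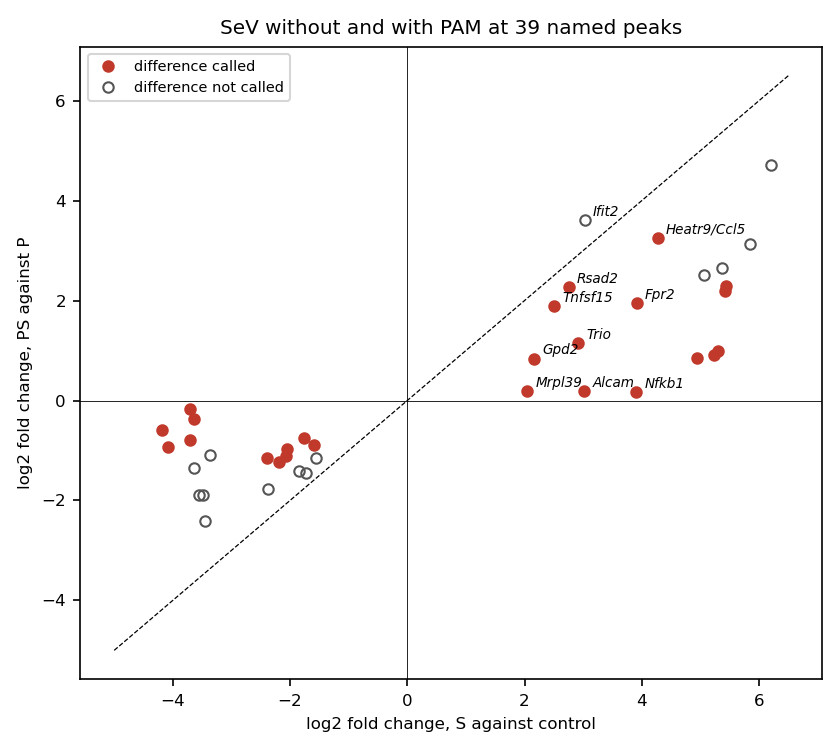
Log2 fold change of SeV without PAM (S against control, horizontal axis) and with PAM (PS against P, vertical axis) at 39 of the 40 ranked peaks (Kalrn, with 0 control counts, is left out), filled where the interaction was called; the dashed line marks equal effects. Alcam, Nfkb1 and the peak near Mrpl39 lie at 0.19, 0.17 and 0.19 on the vertical axis, while Ifit2 lies above the dashed line at 3.03 and 3.61.

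SeV alone differed little from 3',3'-cGAMP alone, a ligand of STING. S against cG called 871 peaks higher in S (0.729%) and 263 lower (0.22%), 0.949% together. Leaving out the first or the second library of each group gave 163 and 145 calls. These libraries of S are those compared with control above, so values are given side by side. At Rsad2, cG gave 163 ± 24.4 CPM against 181 ± 3.00 in S (0.15, edgeR adjusted p = 0.55), and at Ifit2 51.0 ± 0.52 against 55.9 ± 1.60 CPM. Ifnb1 was higher in S than in cG, by 1.39 at its lead peak. Of the 356 antiviral effector peaks, 0 were called higher and 3 lower than in cG. Peaks of low p in this contrast, named after their values were seen, lay near Prg4 (2.12), near Atp2b1 (3.51), in Gtf2b (1.98) and in Mllt10 (1.64). The site near Atp2b1 had 4.84 ± 0.55 CPM in S, 0.418 ± 0.084 in cG and 0.096 ± 0.136 in control.

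S differed more from the bacterial ligands. S against L, labelled LPS, called 6027 peaks higher (5.05%) and 5733 lower (4.8%), 9.84% together, and S against P called 13907 (11.6%) and 15420 (12.9%), 24.5% together. Without the first or the second libraries these counts became 3499 and 4191 for L and 15616 and 14016 for P. Tnfsf15 had 48.0 ± 2.79 CPM in S against 17.3 ± 0.35 in L (1.47) and Ccl5 92.4 ± 1.97 against 44.3 ± 7.51 (1.07). Ifit2 did not follow, with 55.9 ± 1.60 CPM in S and 63.2 ± 5.98 in L. Among the 10 higher peaks of lowest p, the largest contrast with P was at Ifit2, 3.86, followed by Ccl5 at 2.89 and Rsad2 at 2.45.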

How the data were processed

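ATAC-seq counts per peak were deposited by the authors for 36 libraries of 18 groups, 2 per group, in 1 table of raw counts over 119751 peaks, 1 of them mitochondrial. The submitters' processing notes name mm10, Bowtie2 2.2.9, MACS2 (listed with version 1.4), bedtools and featureCounts, without role or order, and the handling of duplicate and multi-mapping reads is not given in the sources used here. Groups were taken from the labels. From the counts, edgeR 4.0.16 in R 4.3.3 gave TMM factors, a filter on low counts (filterByExpr, minimum 10), a common dispersion and a robust quasi-likelihood fit with 1 coefficient per group over all 36 libraries (18 residual degrees of freedom). Adjusted p-values are Benjamini-Hochberg over 119464 peaks. Alternatives used DESeq2 1.42.0, limma 3.58.1, other scalings, filters, thinned counts, a replicate block and left-out libraries. The procedure was tested on simulated data. Symbols, gene ends and promoter sequences came from RefSeq tables (GRCm38.p6), with no exon annotation. Members, gene lists and tests were chosen with earlier results of these data known. Named peaks were the 10 of largest fold and the 10 of lowest p in each direction, at most 1 per gene, with a mean of at least 2 CPM and groups that did not overlap. For each listed gene the lead peak was used, with up to 6 genes per list and direction named, together with members that had no call and the promoter peaks of named genes. The 10 longest runs per direction and 6 promoters were also named. Genes on chromosome 18 have no sequence printed. Intervals on ratios of counts cover counting error only. Some genes of the lists are counted but not reported here by name.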

Additional observations from a re-analysis of the deposited data

Results flagged for a closer look

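The effect of SeV differed with and without PAM at 25 of the 40 ranked peaks, by a test of the difference itself (interaction in the edgeR fit, adjusted over all tested peaks, 4.59% called). Values are the effect with PAM minus the effect without it, on the log2 scale. Among the higher peaks of lowest p, the difference was -3.74 at Nfkb1, -2.83 at Alcam, -1.96 near Fpr2, -1.85 near Mrpl39, -1.76 in Trio and -1.32 in Gpd2. It was smaller at Ccl5 and Heatr9 (-1.02), Tnfsf15 (-0.62) and Rsad2 (-0.48). Among the peaks of largest fold, whose control counts were 2 or 3, it was -4.32 near Dse, -4.31 near Dnajc1, -4.09 in Alpk2, -3.22 near Ywhaq and -3.15 near Atp2b1. Among the lower peaks it was positive, so the fall was smaller with PAM. The peaks of largest fall gave 3.61 in Astn2, 3.54 in Kcnn2, 3.25 in Dchs1, 3.14 near Wdr89 and 2.92 in Kcnip4. The lower peaks of lowest p gave 1.24 in Afdn, 1.09 in Adam22, 1.02 in Nbea, 0.95 near Tyrp1, 0.95 near Npr3 and 0.71 in Ctnnd2. The 40 peaks were chosen by the effect without PAM, which is part of the difference. The mitochondrial share was 61.9% and 60.1% in control and 45.0% to 50.5% in S, P and PS, and its part in these differences was not tested.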

How the results depend on the processing

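Of 220 named peaks, 174 were called, and 106 of these were called in the same direction under every alternative, 16 in all, of which 2 (the mitochondrial share as a covariate and the test against a fold of 1.5) were chosen after seeing the data. Over all named peaks and alternatives 3242 values kept their side of the threshold, 198 lost and 40 gained a call, and 35 changed sign. For S against control the total scaling gave 31040 higher and 7212 lower calls, the covariate 7750 (4768 and 2982), the test against a fold of 1.5 gave 14813 (8814 and 5999), and an adjusted p under 0.01 gave 21994 (10677 lower). Leaving out 1 library gave 21786 to 25763 calls, 11679 to 12918 higher and 10107 to 12845 lower, the lone library being assumed to vary like the other groups. Leaving out replicate 1 or 2 of every group gave 9656 and 8003 calls for PS against P, 9 and 40 for PScG against PcG, 322 and 651 for ZScG against ZcG, 163 and 145 for S against cG, 3499 and 4191 for S against L, and 15616 and 14016 for S against P. Offsets by abundance gave 2032 calls for ZScG against ZcG. Under the total scaling 41.7% of calls were higher in S against L, in place of 51.2%. Extending genes by 20 kb gave 137 listed genes with a lower peak, a gap of 5 kb gave 746 higher and 397 lower runs, and a gap of 20 kb 1175 lower runs. Apart from fewer samples or genes tested, the cause of these shifts was not tested.

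Replicate numbers did not pair the libraries, since the deviations of same-numbered S and control libraries correlated at 0.0032 across peaks. A replicate block gave 33193 calls for S against control (16831 higher and 16362 lower), 21457 for PS against P, 498 for PScG against PcG, 3315 for ZScG against ZcG, 1110 for S against cG, 11647 for S against L and 29129 for S against P.

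Sign changes touched lead peaks that were not called, apart from Map3k8 (-0.25) and Ccnd1 (-0.57) under the covariate. The covariate also gave 0.47 at Ifnab, -0.25 at Mavs, -0.086 at Eif2ak2, -0.40 at Fasl, 0.71 at Cxcl5 and 1.65 at H2-Aa. The total scaling gave 0.28 at Ifnab, 0.12 at Zcchc3, 0.12 at Klf4, 0.10 at Cebpb, 0.23 at Maf, 0.035 at Csf3r, 0.0072 at Casp8, 0.20 at Trib3, 0.30 at Ddit3 and 0.32 at Ccnb1. Offsets by abundance gave 0.12 at Ddit3 and 0.0088 at Ccnb1. Thinning all libraries to the lowest total gave 0.062 at Ifnab, 0.30 at Ifi44l, 0.011 at Ddit3, -0.34 at Mcm5 and 0.054 at Ccnb1. Leaving out 1 library gave ranges of -0.32 to 0.25 at Ifnab, -1.42 to 0.21 at Ifi44l, -0.33 to 2.81 at Fasl, -1.57 to 0.42 at H2-Aa, -0.32 to 0.043 at Trib3, -0.0037 to 0.31 at Pcna, -0.11 to 0.75 at Mcm5 and -0.27 to 0.23 at Ccnb1, with 0.0097 at Ifnab without S library 2.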
